A study of Mus musculus with 12 samples.

Results

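Coenzyme A (CoA) biosynthesis was examined through 10 genes in left-ventricular RNA-seq libraries of WT and cmGch1 KO mice. They are the pantothenate carrier Slc5a6, the pantothenate kinase family Pank1 to Pank4, the enzymes Ppcs, Ppcdc and Coasy that lead from phosphopantothenate to CoA, Dcakd, which is named for a dephospho-CoA kinase domain, and Slc25a42, a mitochondrial carrier of CoA. The 10 genes are the rows of the deposited count table whose Ensembl identifier has one of these symbols in GENCODE M21, out of 26921 rows, and all 10 were among the 11225 genes tested. The set was put together with the difference in Dcakd between the genotypes already known. The genotype values of the 10 genes are therefore given as a description.

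CoA carries acyl groups in fatty acid oxidation, in the tricarboxylic acid cycle and in the synthesis of fatty acids, and the heart holds a large part of its CoA in mitochondria. Cells make it from pantothenate, vitamin B5. Pantothenate kinase catalyses the first and rate-controlling step, after which cysteine is added, the product is decarboxylated, and the bifunctional enzyme CoA synthase attaches an adenylyl group and phosphorylates dephospho-CoA.

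The libraries, 6 WT and 6 cmGch1 KO, came from left ventricles taken at 16 weeks of age. All mice carried Gch1 flox/flox alleles, that is, Gch1 with inserted loxP sites, so that the WT group is itself floxed. The cmGch1 KO mice carried in addition 1 heterozygous copy of Cre recombinase driven by the α-myosin heavy chain promoter, which acts in cardiomyocytes. No library of mice with Cre and unfloxed Gch1 was analysed here, and effects of Cre and of the deletion cannot be told apart. Whole ventricular tissue also holds endothelial cells, fibroblasts, pericytes and macrophages, and in such bulk samples fewer cells of a type and less RNA per cell cannot be told apart.

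Between 19921398 and 37917806 counts were assigned to genes per library. Gch1, which encodes GTP cyclohydrolase 1, the first enzyme of tetrahydrobiopterin synthesis, was measured in WT at 10.7 ± 0.974 cpm (SD, n = 6; cpm, counts relative to the library total, scaled by TMM factors) and in cmGch1 KO at 5.48 ± 0.855 cpm (SD, n = 6), and all 6 cmGch1 KO libraries were below every WT library. The cmGch1 KO replicates 2 and 3 stood apart from the other 10 libraries. They had 86.7 and 99.1 cpm of Xist against at most 0.234 cpm elsewhere, a Y-linked count of 0 (summed over Uty, Kdm5d, Eif2s3y and Ddx3y), and 14.9% and 16.1% of counts from mitochondrial genes against 18.3% to 22.9%. The other 10 libraries, with all 6 WT libraries among them, had 167 to 192 cpm of these Y-linked genes. Sex-linked expression was therefore unbalanced between the genotypes. The labels used here give no sex, and values of the 10 genes without cmGch1 KO replicates 2 and 3 are given below. The cardiomyocyte markers Myh6, Tnnt2, Actc1, Ryr2 and Pln were high in all libraries, summing to 43146 to 49286 cpm (WT) and 38348 to 48174 cpm (cmGch1 KO).

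Dcakd lies at chr11:102994047-103028333 on the minus strand of GRCm38, and GENCODE M21 lists 5 transcripts, 2 of them protein coding. The coding transcripts start far apart, Dcakd-201 at position 103017168 and Dcakd-205 at position 103028304, where the gene overlaps the start of Nmt1 on the opposite strand. The RefSeq promoter window for GRCm38.p6 surrounds the start used by Dcakd-201 and is shown because Dcakd is the only one of the 10 genes that passed the genotype threshold. Capitals mark the letters of a GC box (GGGCGG on either strand), the DNA sequence recognised by Sp-family factors.

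Dcakd, chr11:103017098-103017397, minus strand: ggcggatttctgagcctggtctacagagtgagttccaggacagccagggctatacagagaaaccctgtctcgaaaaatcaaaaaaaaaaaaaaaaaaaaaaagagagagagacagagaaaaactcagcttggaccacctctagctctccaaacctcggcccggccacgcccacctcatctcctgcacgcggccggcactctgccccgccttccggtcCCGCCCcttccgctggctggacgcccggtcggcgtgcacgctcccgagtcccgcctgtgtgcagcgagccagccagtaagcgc

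The Dcakd window had 59.0% G and C and 1 GC box. RefSeq windows were found for 9 of the 10 genes, 13 windows in all, and Coasy had none. A GC box was present in 9 of the 13 windows and in 35.7% of all 32851 promoter windows of this length. A CCAAT box (CCAAT, either strand) was present in 7 of the 13 windows, 1 of them of Pank1 and none of Dcakd, and in 37.4% of all windows. The nuclear receptor half-site AGGTCA was found in the windows of Ppcdc and Ppcs and in 16.3% of all windows. An E-box (CACGTG), the ERR element TCAAGGTCA, which contains the half-site, and the cAMP response element TGACGTCA were found in none of the 13 windows, and in 7.15%, 0.423% and 1.79% of all windows. These are matches of letters within the windows and give no measure of binding.

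Introns of 3 pantothenate kinase genes and of Dcakd also hold microRNA hairpins on the same strand as the host. Mature sequences from RefSeq are shown, with the seed, bases 2 to 8, in capitals. Those of miR-107-3p and miR-103-3p are shown because these Pank genes share their family. The sequence of miR-6931-3p, which has another seed, is shown because it lies in Dcakd.
mmu-miR-107-3p, in Pank1: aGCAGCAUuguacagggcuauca
mmu-miR-103-3p, in Pank2 and Pank3: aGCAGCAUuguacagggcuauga
mmu-miR-6931-3p, in Dcakd: cCCAACCUcuucauaccccag

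The microRNAs miR-107-3p and miR-103-3p have the same seed, GCAGCAU, and differ by a single base, G22C, counted from 1 at the 5′ end with the base of miR-103-3p first. The hairpin of miR-107 lies at chr19:34820687-34820773, those of miR-103 at chr2:131288052-131288137 and chr11:35782396-35782481. The gene count assay does not measure mature microRNAs. The hairpin rows of Mir107 and Mir103-2 had 0 counts and at most 2 counts per library, and Mir6931, in an intron of Dcakd, had at most 15, so nothing is said here of their levels.

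Dcakd transcripts were lower in cmGch1 KO than in WT left ventricle. In WT the lowest, median and highest library had 37.2, 45.0 and 53.2 cpm, and in cmGch1 KO 25.0, 26.6 and 30.6 cpm. All 6 cmGch1 KO libraries were below every WT library, and the spread within cmGch1 KO was narrower than within WT. The means were 45.4 ± 5.57 cpm and 27.3 ± 2.18 cpm (SD, n = 6), resting on 540 to 1716 counts per library. The log2 fold change was -0.73 ± 0.09 (SE), so that cmGch1 KO had 60.2% of the WT level, with an adjusted p of 8.27e-04 from the quasi-likelihood test of edgeR, corrected by the Benjamini-Hochberg procedure over all tested genes.

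Among the 50 genes with an FDR under 0.05 that were lower in cmGch1 KO, Dcakd had the 18th largest fold change, and over all tested genes it had the 12th smallest p. Of the 10 genes, 1 was lower at this threshold and 0 were higher. Over all tested genes the percentage called was 1.12% in either direction, 0.445% lower and 0.677% higher. The percentage with every cmGch1 KO library below every WT library was 0.802%, against 1 of the 10 genes. Since Dcakd was chosen on this contrast, nothing is read from these counts.

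**Figure D1:**
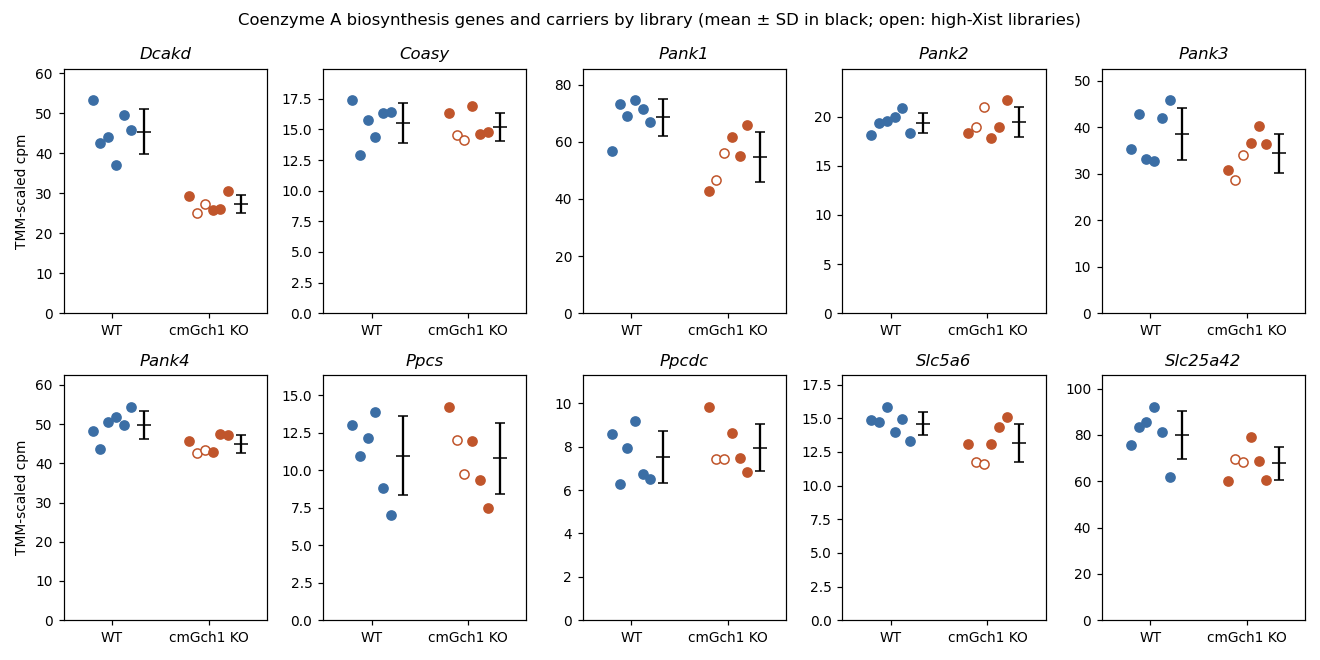
Each panel plots TMM-scaled cpm for one of the 10 genes in the 6 WT (blue) and 6 cmGch1 KO (orange) libraries, with the mean ± SD in black and with open symbols for cmGch1 KO replicates 2 and 3, which had high Xist. The groups do not overlap for Dcakd (37.2 to 53.2 cpm against 25.0 to 30.6 cpm) and overlap for the other 9 genes.

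The difference in Dcakd was about as large without the libraries that stood apart. Without cmGch1 KO replicates 2 and 3, which had 25.0 and 27.3 cpm, the log2 fold change was -0.70 ± 0.11 (SE), with an adjusted p of 0.0138 by the same edgeR test. With sex-linked expression as a covariate it was -0.70. Over the 21 alternatives the value lay between -0.78, without WT replicate 4, and -0.65, from the authors' normalised values, and Dcakd passed the threshold in all 21.

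**Figure D2:**
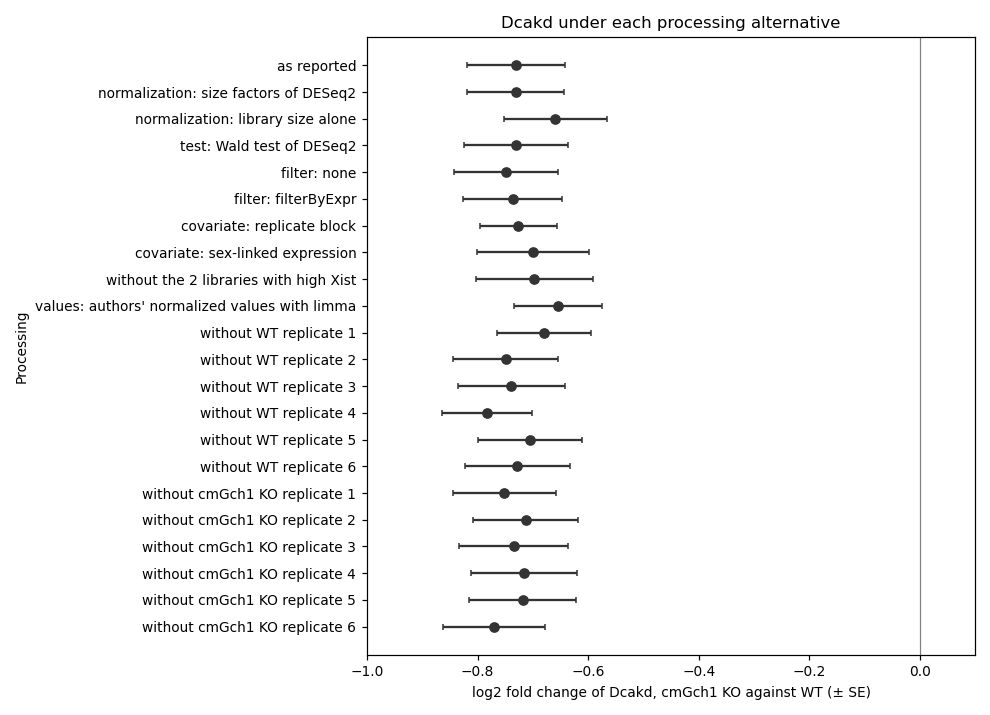
The log2 fold change of Dcakd, cmGch1 KO against WT, is plotted with its SE for the reported processing and 21 alternatives, including the removal of each library in turn. All points lie between -0.78 and -0.65, and the value from the authors' normalised table is a difference of those values, which are on their own log2 scale.

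Genes beside Dcakd gave other values. Nmt1, an N-myristoyltransferase gene, starts 143 bases from the outermost Dcakd start on the opposite strand, and the genes share 144 bases, including exon sequence. It was measured at 91.3 to 96.1 cpm in WT and 87.0 to 95.5 cpm in cmGch1 KO, with overlapping groups and a log2 fold change of -0.01 ± 0.05 (SE). The strand setting of the counting is not given in the sources used here, so reads in the shared bases cannot be assigned to a strand with certainty.

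Plcd3, a phospholipase C gene whose nearest end is 41971 bases away, had 15.8 ± 0.991 cpm in WT against 19.2 ± 1.91 cpm in cmGch1 KO (SD, n = 6). Its log2 fold change was 0.28 ± 0.08 (SE), with an adjusted p of 0.132 by edgeR's quasi-likelihood test, and it did not pass the threshold. The other annotated genes within 50 kb, C1ql1, 2410004I01Rik, Gm26668 and Mir6931, did not exceed 15 counts in any library and were not tested. Of these, Gm26668, a noncoding RNA gene on the opposite strand, spans the whole of Dcakd. It shares 34287 bases with Dcakd, including exon sequence, and had at most 11 counts per library. The unknown strand setting applies to these bases as well.

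The kinase family at the entry to the pathway had 0 of 4 genes past the threshold. Pank1, which encodes pantothenate kinase isoforms expressed in heart and liver, had the largest difference after Dcakd. Its lowest, median and highest values were 56.8, 70.2 and 74.5 cpm in WT and 42.6, 55.6 and 66.0 cpm in cmGch1 KO. The groups overlapped through WT replicate 1, the lowest WT library, and 4 of the 6 cmGch1 KO libraries were below every WT library. Pank1 had a log2 fold change of -0.33 ± 0.11 (SE), with an adjusted p of 0.192 by edgeR's quasi-likelihood test, and it lay between -0.39 and -0.25 over the 21 alternatives, with the threshold passed in 0.

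Pank2 was almost level between the genotypes. WT had 18.2, 19.5 and 20.9 cpm as the lowest, median and highest values, and cmGch1 KO 17.9, 18.9 and 21.7 cpm. The cmGch1 KO values reached beyond the WT range at both ends, with a log2 fold change of 0.01 ± 0.07 (SE). Rnf24, which overlaps the end of Pank2 on the opposite strand, had 5.12 ± 0.982 cpm in WT against 5.18 ± 0.991 cpm in cmGch1 KO (SD, n = 6).

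Pank3, a cytosolic pantothenate kinase, had 32.7, 38.6 and 45.8 cpm in WT and 28.7, 35.2 and 40.2 cpm in cmGch1 KO, again as lowest, median and highest. Most cmGch1 KO libraries fell inside the WT range, and 2 were below it. For Pank3 the log2 fold change was -0.16 ± 0.11 (SE), and -0.10 without the 2 libraries with high Xist, of which replicate 2 was the lowest of all.

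Pank4 encodes a family member that lacks pantothenate kinase activity in mammals and has a phosphatase domain. It had 43.5, 50.2 and 54.3 cpm in WT and 42.5, 44.5 and 47.6 cpm in cmGch1 KO. All cmGch1 KO libraries were below the WT median, and 3 of the 6 lay inside the WT range. The log2 fold change was -0.15 ± 0.07 (SE), with an unadjusted p of 0.0394 and an adjusted p of 0.393 by edgeR's quasi-likelihood test.

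Within the active kinases Pank1, Pank2 and Pank3, the summed level per exon length was 17.5 ± 1.25 RPKM in WT and 15.2 ± 1.66 RPKM in cmGch1 KO (SD, n = 6; cpm divided by the exon length in kilobases). Pank1 made up 47.5 ± 2.67% of this sum in WT and 43.2 ± 2.69% in cmGch1 KO. The share of Pank2 was 22.6 ± 1.38% and 26.1 ± 2.49%, and that of Pank3 29.9 ± 3.32% and 30.7 ± 2.13%. The shares of Pank1 overlapped between the groups, at 44.8% to 51.5% in WT and 39.4% to 46.5% in cmGch1 KO. All these shares rest on exon lengths of 8267, 4912 and 7376 bases for Pank1, Pank2 and Pank3. With the coding lengths, 1672, 1341 and 1110 bases, they would differ, and those shares were not computed.

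The enzymes between the kinases and CoA showed differences smaller than the spread between libraries. Ppcs, phosphopantothenoylcysteine synthetase, had 7.03, 11.6 and 13.9 cpm in WT and 7.50, 10.8 and 14.2 cpm in cmGch1 KO. Its libraries varied widely within each genotype, and the log2 fold change was -0.03 ± 0.18 (SE), the widest error of the 10 genes. Ppcdc, the decarboxylase of the next step, had 6.26, 7.36 and 9.17 cpm in WT and 6.84, 7.46 and 9.81 cpm in cmGch1 KO, with a log2 fold change of 0.07 ± 0.12 (SE). Its lowest library had 143 counts, the fewest of the 10 genes.

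Coasy, the CoA synthase that carries the established dephospho-CoA kinase activity, had 13.0, 16.0 and 17.4 cpm in WT and 14.1, 14.7 and 16.9 cpm in cmGch1 KO. Every cmGch1 KO library lay inside the WT range. Coasy had a log2 fold change of -0.03 ± 0.08 (SE), with an adjusted p of 0.957 by edgeR's quasi-likelihood test.

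Dcakd and Coasy, the genes with a dephospho-CoA kinase domain, were set against each other per exon length within each library. Dcakd was 3.28 ± 0.274 times the Coasy level in WT and 2.02 ± 0.209 times in cmGch1 KO (SD, n = 6). The WT ratios, 2.91 to 3.68, did not overlap those of cmGch1 KO, 1.71 to 2.32. Dcakd remained above Coasy in all 12 libraries. With coding lengths in place of exon lengths the ratio was 7.13 ± 0.594 in WT and 4.40 ± 0.453 in cmGch1 KO (SD, n = 6), so its size depends on the length used. This ratio uses the contrast on which Dcakd was chosen and is not independent of it.

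The 2 carriers were both lower on average without passing the threshold. Slc5a6, the sodium-dependent carrier of pantothenate, biotin and lipoate, had 13.3, 14.8 and 15.8 cpm in WT and 11.6, 13.1 and 15.1 cpm in cmGch1 KO. The 2 lowest cmGch1 KO values were those of the libraries with high Xist, and the log2 fold change of -0.15 ± 0.08 (SE) was -0.06 ± 0.08 (SE) without them. Slc5a6 shares 613 bases with Atraid on the opposite strand, which had 34.2 ± 6.42 cpm in WT against 31.9 ± 3.75 cpm in cmGch1 KO (SD, n = 6).

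Slc25a42, which brings CoA into the mitochondrial matrix, had 62.0, 82.3 and 91.9 cpm in WT and 60.3, 68.4 and 79.2 cpm in cmGch1 KO. All cmGch1 KO libraries were below the WT median, and 4 of them lay inside the WT range, which reached down to 62.0 cpm in WT replicate 6. This was a log2 fold change of -0.24 ± 0.10 (SE), with an unadjusted p of 0.0245 and an adjusted p of 0.32 by edgeR's quasi-likelihood test.

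In total 8 of the 10 genes had a negative and 2 a positive log2 fold change, with a median of -0.15 against -0.01 over all tested genes. Of the 11225 tested genes, 5984 had a negative and 5241 a positive value. At an unadjusted p under 0.05, 4 of the 10 were lower (Dcakd, Pank1, Slc25a42 and Pank4) and 0 were higher, where 4.51% of all tested genes were lower and 7.01% higher at that level. These counts describe a set that was drawn up with the Dcakd value known. Scaled by library size alone, the median of all genes moved to 0.07, and the values of Coasy, Ppcs and Pank2 became 0.04, 0.04 and 0.08. Those of Dcakd, Pank1, Pank3, Pank4, Slc5a6 and Slc25a42 stayed negative, with Pank4 at -0.07 ± 0.07 (SE). Without the 2 libraries with high Xist, the values of Pank1, Slc25a42 and Pank4 were -0.28 ± 0.12, -0.25 ± 0.12 and -0.11 ± 0.08 (SE). Their adjusted p-values in edgeR's quasi-likelihood test were then 0.658, 0.72 and 0.915. Those of Coasy, Ppcs, Pank2 and Ppcdc were 0.02, -0.04, -0.01 and 0.12 (log2 fold change).

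**Figure D3:**
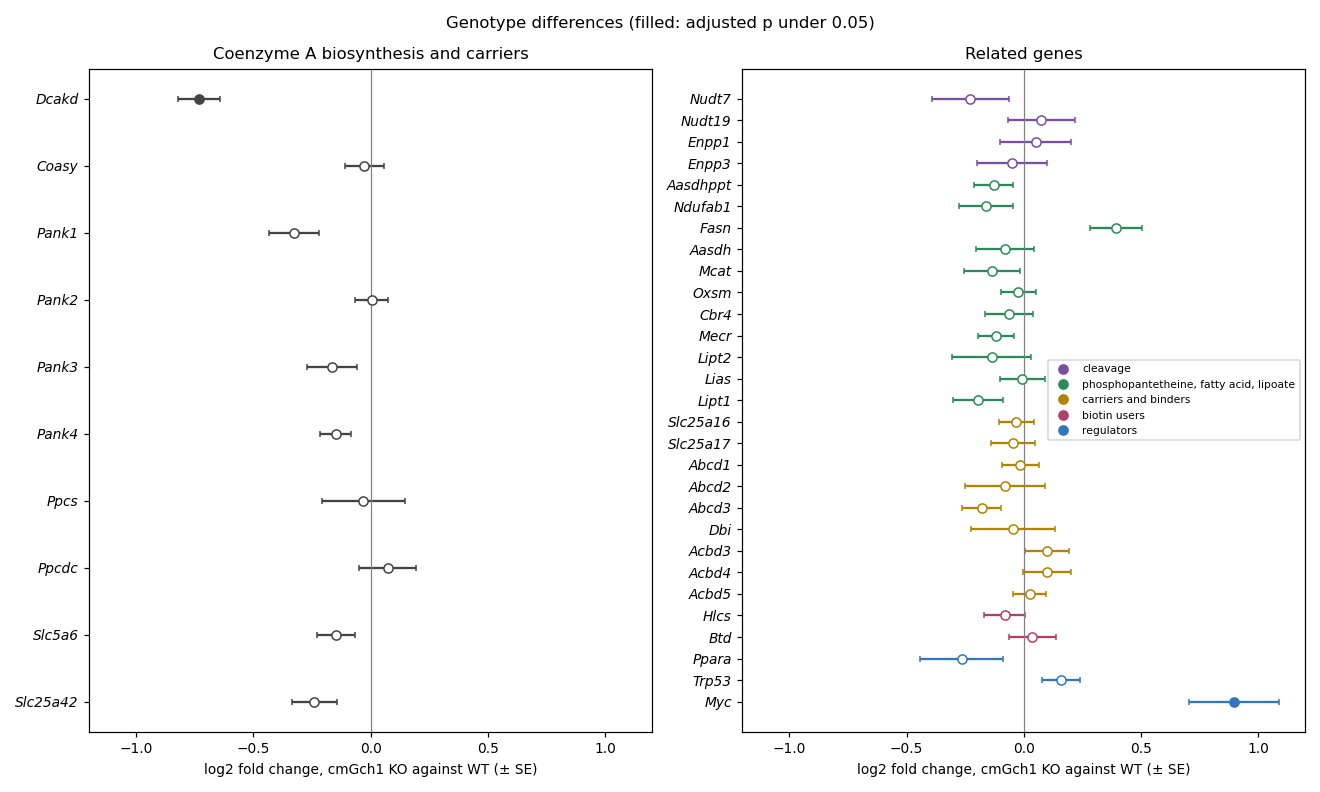
The log2 fold changes of cmGch1 KO against WT are plotted with their SE, on the left for the 10 genes of CoA synthesis and transport and on the right for 29 related genes coloured by list, with filled symbols where the adjusted p was under 0.05. Dcakd at -0.73 is the only filled symbol on the left, and Myc at 0.90 the only one on the right.

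Levels per exon length were compared within the WT libraries. The choice of Dcakd on the genotype difference favours a high WT value, so its place in this order is a description. In WT the order was Dcakd at 17.7 ± 2.18 RPKM, Pank4 at 14.3 ± 1.05, Slc25a42 at 13.3 ± 1.71, Pank1 at 8.30 ± 0.781 and Ppcs at 6.84 ± 1.64 RPKM (SD, n = 6). Below these came Coasy at 5.41 ± 0.559 RPKM, Pank3 at 5.24 ± 0.76, Pank2 at 3.95 ± 0.207, Slc5a6 at 3.66 ± 0.218 and Ppcdc at 1.30 ± 0.207 RPKM (SD, n = 6). In cmGch1 KO Dcakd had 10.7 ± 0.854 RPKM and came after Pank4 at 12.9 ± 0.643 and Slc25a42 at 11.3 ± 1.17 RPKM.

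The 9 neighbouring pairs in the WT order were compared by an exact two-sided sign-flip permutation test over the same 6 libraries that set the order, so the p-values are not independent of it. Slc25a42 was above Pank1, Pank3 above Pank2 and Slc5a6 above Ppcdc in 6 of 6 libraries, by 0.68 ± 0.18, 0.40 ± 0.23 and 1.51 ± 0.23 (log2 difference of RPKM, mean ± SD). Each of these 3 pairs had the smallest p that the exact test allows with 6 libraries, 0.0313, and an adjusted p of 0.0938 over the 9 pairs. With so few libraries a pair passes after adjustment only if most pairs reach the smallest p, and nothing is read from the 0 that passed. Dcakd was above Pank4 in 5 of 6 libraries, by 0.31 ± 0.22 (exact p of 0.0625, adjusted 0.113). The other 5 pairs had exact adjusted p-values of 0.113 to 0.688.

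The order depends on which length is used. Merged exons of Dcakd cover 2556 bases, of which 693 are coding, while those of Pank1 cover 8267 bases with 1672 coding. With the coding length in place of all exons, 0 of the 10 genes kept their rank, Slc25a42 was highest, followed by Dcakd and Pank1, and Slc5a6 was last.

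**Figure D4:**
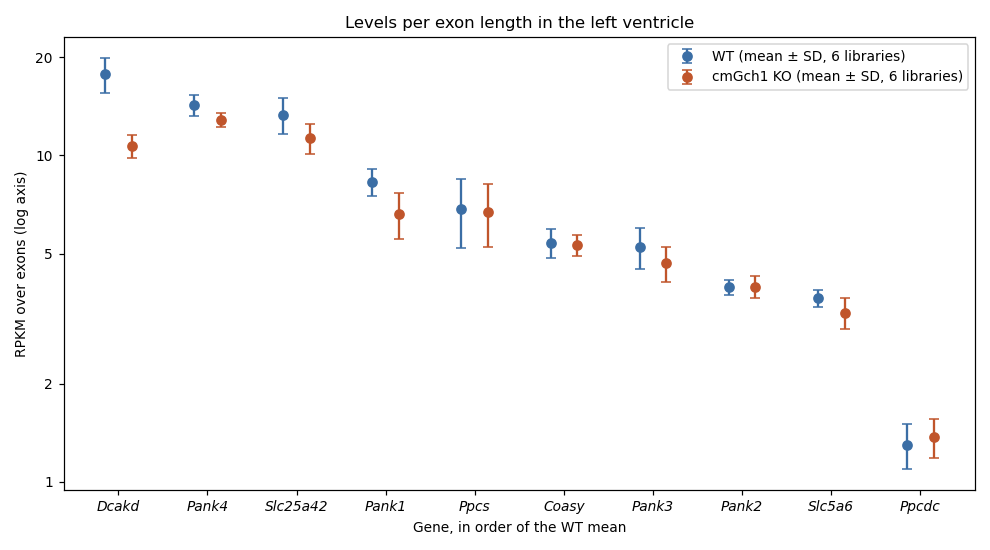
Mean RPKM over merged exons is plotted on a log axis with the SD of 6 libraries per genotype, for the 10 genes in the order of the WT mean. Dcakd is highest in WT at 17.7 RPKM and lies below Pank4 and Slc25a42 in cmGch1 KO at 10.7 RPKM, and Ppcdc is lowest in both.

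Variation between libraries of the same genotype was examined on log2 cpm after the genotype means were removed, over 12 libraries that share depth and composition differences. Some libraries with the same replicate number in WT and cmGch1 KO also deviated together, so the 12 points are not fully independent. These correlations are descriptions. Of the 45 gene pairs, 7 had an absolute Pearson r over 0.5. The share of all tested gene pairs over this value was not computed, and nothing is read from the count. Ppcs and Ppcdc, which catalyse consecutive steps, varied together with r = 0.82 (Spearman rho 0.83), and Pank3 varied against both, with r = -0.77 for Ppcs and -0.66 for Ppcdc. Without the 2 libraries with high Xist, over 10 libraries, these were 0.87, -0.80 and -0.86. Ppcs, Ppcdc and Pank3 also followed the largest variation shared by all tested genes, given below. The part of that variation in these r values was not tested.

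The first principal component of all tested genes held 37.9% of their within-genotype variance. Among the 10 genes, Ppcs (r = 0.84) and Ppcdc (r = 0.76) followed it in one direction, and Pank3 (r = -0.89) and Pank1 (r = -0.71) in the other. Dcakd had r = -0.01 with this component. Dcakd varied with Coasy (r = 0.54) and against Slc25a42 (r = -0.60), and its r with Pank1 was -0.26, although both had lower means in cmGch1 KO.

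**Figure D5:**
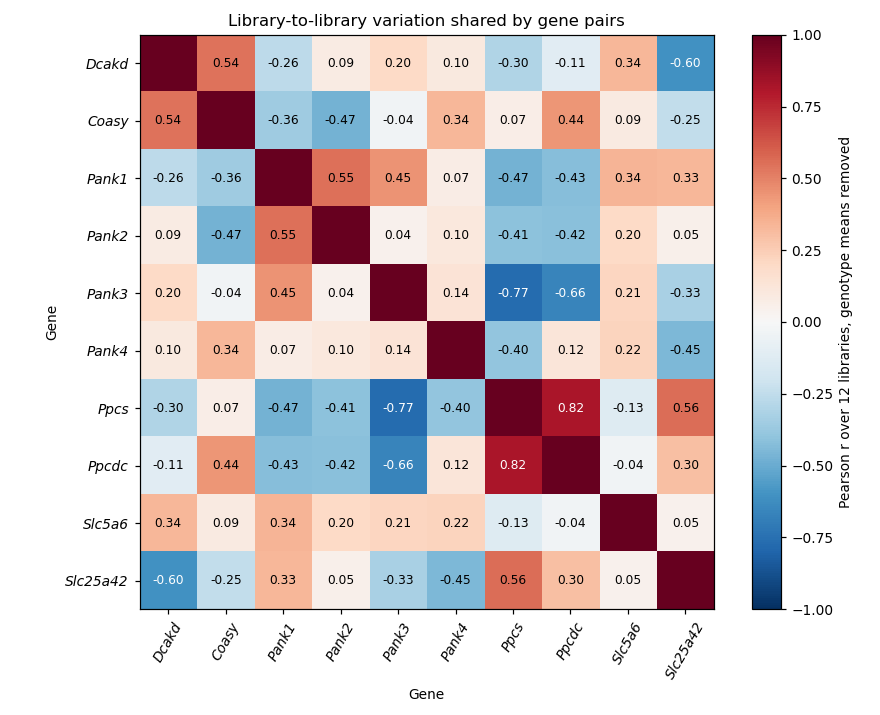
The matrix shows Pearson r between each pair of the 10 genes over 12 libraries, computed on log2 cpm with the genotype means removed, from -1 (blue) to 1 (red). Ppcs with Ppcdc (0.82) and Pank3 with Ppcs (-0.77) are the strongest pairs, and Dcakd is closest to Coasy (0.54).

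The tested genes most like Dcakd in this within-genotype variation were Lrrc4b (r = 0.86), Pink1 (0.86), Strn3 (0.85), H2-DMa (0.84) and Ces1d (0.84), over 12 libraries. Lrrc4b encodes a synaptic adhesion protein, Pink1 a mitochondrial kinase of mitophagy, Strn3 a striatin subunit of phosphatase complexes, H2-DMa a chaperone of class II antigen presentation and Ces1d a carboxylesterase. None of these 5 passed the genotype threshold in edgeR's quasi-likelihood test, with log2 fold changes from -0.47 for Lrrc4b to 0.24 for H2-DMa. Over 10 libraries, without the 2 with high Xist, their r with Dcakd was 0.84 to 0.89, but only 1 of the 5 was still among the 5 highest of all genes. The 5 were picked as the highest r of all tested genes over the 12 libraries that include these 10. Both sets of r therefore depend on that choice.

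The genes around the pathway were taken from 5 lists with 33 genes, of which 29 were tested. Nudt8 could not be matched to a row, and Vnn1, Vnn3 and Hsd17b8, listed under its other symbol H2-Ke6, were below the minimum. In these lists 0 genes were called lower and 1 higher. A negative log2 fold change was found for 20 and a positive one for 9, with a median of -0.05. Over all 11225 tested genes, 5984 had a negative and 5241 a positive value.

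Cleavage of CoA and pantetheine was represented by 4 tested genes, with 0 called. Nudt7, a peroxisomal CoA diphosphatase, had 58.1 ± 15.5 cpm in WT against 49.6 ± 8.58 cpm in cmGch1 KO (SD, n = 6), a log2 fold change of -0.23 ± 0.16 (SE). Nudt19, another peroxisomal CoA diphosphatase, had a log2 fold change of 0.07 ± 0.14 (SE). Both differences were within the spread of the libraries.

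The list of phosphopantetheine transfer and fatty acid and lipoate synthesis had 11 tested genes. Of these, 10 had a negative value, against 5984 of all 11225 tested genes, and 0 were called in either direction by edgeR's quasi-likelihood test. Fasn, the cytosolic fatty acid synthase that carries a phosphopantetheine group, had the opposite sign, with 19.6 ± 3.02 cpm in WT against 25.8 ± 2.95 cpm in cmGch1 KO (SD, n = 6). Its log2 fold change of 0.39 ± 0.11 (SE) had an unadjusted p of 0.00301 and an adjusted p of 0.125 by that test. Over 22 settings, the reported processing included, Fasn was called in 3. These were the Wald test of DESeq2 (adjusted p of 0.0384), edgeR without cmGch1 KO replicate 1 (0.0494) and edgeR with a replicate block (0.0321). Without the 2 libraries with high Xist the log2 fold change of Fasn was 0.37 ± 0.13 (SE). Its unadjusted p was then 0.0166 and its adjusted p 0.504 by edgeR's quasi-likelihood test. Lipt1, a lipoyltransferase, had a log2 fold change of -0.20 ± 0.11 (SE). The lists' values for Aasdhppt, which attaches the phosphopantetheine group, and Ndufab1, the mitochondrial acyl carrier protein that receives it, were -0.13 ± 0.08 and -0.16 ± 0.12 (SE).

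Other carriers and binders of CoA and acyl-CoA, 9 genes, had 0 called. Abcd3, a peroxisomal transporter of acyl-CoA, had 110.5 ± 9.32 cpm in WT against 97.5 ± 10.8 cpm in cmGch1 KO (SD, n = 6), a log2 fold change of -0.18 ± 0.08 (SE) with an unadjusted p of 0.0448 and an adjusted p of 0.416 by edgeR's quasi-likelihood test. Acbd4, an acyl-CoA binding protein, had 0.10 ± 0.10 (SE). Slc25a16, a further mitochondrial carrier linked to CoA, was level at -0.03 ± 0.07 (SE), beside -0.24 ± 0.10 (SE) for Slc25a42. For the biotin enzymes Hlcs and Btd, which use another substrate of Slc5a6, the log2 fold changes were -0.08 ± 0.09 and 0.04 ± 0.10 (SE).

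Of 3 regulators reported for pantothenate kinases, Myc, a transcription factor of growth, was the 1 gene called. It entered the test through the group in which it was higher, since 6 cmGch1 KO and 2 WT libraries exceeded the minimum of 3 cpm, and its values are a description. Myc had 2.08, 2.38 and 3.47 cpm as lowest, median and highest values in WT and 3.56, 4.49 and 7.25 cpm in cmGch1 KO, without overlap, where 1.07% of all tested genes had every cmGch1 KO library above every WT library. The log2 fold change was 0.90 ± 0.19 (SE), with an adjusted p of 0.0399 by edgeR's quasi-likelihood test. The call was lost without the 2 libraries with high Xist, at 1.04 ± 0.20 (SE) with an adjusted p of 0.0563, and on leaving out any single one of 8 libraries, WT replicates 2, 3, 5 and 6 and cmGch1 KO replicates 1, 3, 5 and 6. Ppara, the nuclear receptor of fatty acid oxidation genes, had 41.1 ± 8.99 and 34.2 ± 9.48 cpm (SD, n = 6), a log2 fold change of -0.26 ± 0.18 (SE).

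Markers of other cell types were also compared between the genotypes, and only Acta2 passed the threshold. All 5 macrophage markers, Adgre1, Csf1r, Cd68, C1qa and Mrc1, had a positive log2 fold change with an unadjusted p under 0.05, a level at which 7.01% of all tested genes were higher, and 0 of 5 passed after adjustment. Without the 2 libraries with high Xist, 3 of the 5 kept an unadjusted p under 0.05. Their summed level was 101.5 to 117.1 cpm in WT and 118.3 to 142.6 cpm in cmGch1 KO, without overlap. Acta2, of the smooth muscle and pericyte list, was called higher with a log2 fold change of 0.66 ± 0.11 (SE), and the other 4 genes of that list had negative values. All 5 fibroblast markers also had positive values, as did 5241 of the 11225 tested genes, and Dcn was level at 0.01 ± 0.09 (SE). Of the 5, 0 were called and 2 had an unadjusted p under 0.05, namely Col3a1 at 0.44 ± 0.12 and Tcf21 at 0.38 ± 0.17 (log2 fold change, SE). Without the 2 libraries with high Xist these were 0.29 ± 0.11 and 0.24 ± 0.18 (SE), with unadjusted p-values of 0.0259 and 0.202 in edgeR's test. In the endothelial list Egfl7 was at -0.28 ± 0.12 (SE, unadjusted p of 0.037 in edgeR's test). It was at -0.22 ± 0.14 (SE, unadjusted p of 0.136 in that test) without the 2 libraries with high Xist. All 3 red blood cell markers had negative values with unadjusted p-values over 0.05. The sums of the fibroblast, endothelial, smooth muscle and pericyte, atrial and red blood cell lists overlapped between genotypes, those of adipocytes and lymphocytes did not exceed 3.10 and 2.18 cpm, and that of nerve and glia 8.88 cpm. The part of cell composition in the Dcakd value was not tested.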

How the data were processed

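RNA-seq of left ventricle was analysed for 6 WT and 6 cmGch1 KO libraries, grouped by the sample labels. The authors made stranded libraries with dUTP and deposited raw counts per Ensembl gene and a second table of normalised values on a log2 scale. The labels and methods name HISAT2, SAMtools, Picard, featureCounts and GRCm38. The annotation and strand setting of the counting are not given in the sources used here. Symbols, coordinates and exon lengths came from GENCODE M21 (26545 of 26921 genes, 98.6%). Depth was 19921398 to 37917806 counts per library, and counting error is only one part of the spread between libraries.

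A gene was tested where 6 or more libraries exceeded 3 cpm. Tests were made with edgeR 4.0.16 in R 4.3.3, with TMM factors computed over these genes, genotype as the only term of a quasi-likelihood model, and calls at a Benjamini-Hochberg FDR under 0.05. The study's methods define the unit of n as an animal. RPKM used TMM-scaled counts over merged exons. Correlations used log2 cpm with a prior count of 2. The alternatives were other scalings and filters, the Wald test of DESeq2 1.42.0, covariates, limma 3.58.1 on the deposited log2 values, and removal of libraries.

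The 10 genes, the lists and the tests were chosen with earlier results of these data known. Named genes are the 10, Gch1, list genes with an unadjusted p under 0.05 or an FDR under 0.05, the 2 with the largest change per list, the 5 most like Dcakd, neighbouring genes, and markers of a list that moves with genotype. Aasdhppt, Ndufab1, Slc25a16, Col3a1, Tcf21, Dcn and Egfl7 were named in addition, after their values were seen.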

Additional observations from a re-analysis of the deposited data

Results flagged for a closer look

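In 55 genes, namely the 10 of CoA synthesis and transport, Gch1, the tested genes of the related lists, the 5 most like Dcakd, the tested neighbours, the macrophage markers and Acta2, each genotype was examined for a single library far from the other 5, giving 110 groups of 6. Chance marks about 1 in 20 such groups, and 3 were marked here, none of them among the 10 genes. Enpp1 had 8.46 cpm in WT replicate 2, with the next WT library at 6.29 cpm. Aasdhppt had 32.9 cpm in cmGch1 KO replicate 1, with the next at 28.2 cpm. Cbr4 had 42.1 cpm in the same cmGch1 KO library, with the next at 33.3 cpm.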

How the results depend on the processing

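Dcakd was lower and past the threshold in all 21 alternatives, -0.78 to -0.65, and 1 of the 10 genes was called lower in each. No other call among the 10 changed, and the replicate block gave 1 lower and 0 higher. The number of all genes called moved far more than this. Against 50 lower and 76 higher, there were 155 and 218 by the Wald test of DESeq2, 24 and 40 when sex-linked expression was a covariate, 18 and 20 without the 2 libraries with high Xist, and 116 higher when only library size was scaled. Leaving out 1 library gave 30 (without WT replicate 3) to 97 lower and 45 (without WT replicate 3) to 116 higher (both highest without cmGch1 KO replicate 1). With a replicate block 76 were lower. Libraries with the same number were not taken as pairs, since the correlations of their deviations were 0.676, -0.0945, -0.0775, -0.128, 0.402 and 0.509, though 3 of 6 WT libraries correlated best with their own number. The block lowered the SE of Ppcs from 0.18 to 0.09 and of Slc25a42 from 0.10 to 0.06. With it the adjusted p in edgeR's quasi-likelihood test was 0.0706 for Pank1 and 0.0849 for Slc25a42, against 0.192 and 0.32 without it.

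Of the related genes, Myc alone was called, while 2 were called by DESeq2 and with the replicate block (Myc and Fasn), and 0 without the libraries with high Xist. Leaving out 1 library gave 0 to 1. The adjusted p of Myc over the alternatives lay between 7.23e-04 and 0.105. It was over 0.05 without each of WT replicates 2, 3, 5 and 6 and cmGch1 KO replicates 1, 3, 5 and 6, and 1 gene was called without cmGch1 KO replicate 1 (Fasn). Of the 10 ranks per length, 0 were kept with coding lengths and 5 in cmGch1 KO, and 8 to 10 without 1 WT library, where an exact test of 5 libraries cannot reach 0.05. Of the 5 genes most like Dcakd, 2 were among the 5 highest by Spearman and 1 without the libraries with high Xist. The causes were not tested. The lowest counts per library among the 10 genes were 143 for Ppcdc and 154 for Ppcs.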
